A study of Drosophila melanogaster with 9 samples.

Results

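The comparison described here sets whole larvae of the fruit fly Drosophila melanogaster reared at high density, 300 eggs per ml of food, against larvae reared at low density, 5 eggs per ml. Its members are the 3 high-density and 3 low-density RNA sequencing libraries, 6 of the 9 libraries of the series, and all 12883 genes of the 17759 in the deposited table that passed a filter on low counts. The other 3 libraries come from a medium density of 60 eggs per ml and entered the fit to estimate the spread between libraries, with their values given here for 3 genes only. Every library was made from a pool of 10 wandering third-instar larvae, and all groups ate the same sugar and yeast diet. The labels give the densities as eggs per ml in one place and say in another that first-instar larvae were counted into the vials. They do not give the sex of the larvae, the fly strain or the hour of collection, and they do not say whether the 3 pools of a group came from separate vials, so that p-values here measure the spread between these pools.

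A wandering larva is the last larval stage, when feeding stops and the animal leaves the food to look for a place to pupariate. Its body holds the polyploid tissues that grew during feeding, such as the salivary gland, fat body, gut, muscle and epidermis, beside the dividing cells of the imaginal discs, brain and gonads. The steroid ecdysone, released in pulses from the ring gland, sets the timing of the steps toward the pupa, while insulin-like peptides tie growth to food. Crowding lowers the food available to each larva and raises the waste around it, chiefly ammonia and urate, and crowded larvae are known to pupate later and at a smaller size.

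Deposited counts summed to between 22620583 and 23656877 per low-density library, and to 23165106, 16822606 and 25141308 in high-density replicates 1, 2 and 3. Levels are given as CPM, counts scaled by TMM factors to a common library size, which do not correct for gene length. At high density the pools varied more, where the median SD over genes was 0.228 (log2 CPM, n = 3) against 0.131 at low density. High replicate 3 stood apart from high replicates 1 and 2 (r = 0.949 and 0.967, against 0.977 between those 2), and it was the high library nearest to the low libraries for 1209 of the 1961 genes called below (61.7%). Transcripts of the mitochondrial genome, nearly all of them the large ribosomal RNA, took 6.27% to 8.56% of the counts at low density and 10.1% to 11.4% at high density.

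With TMM scaling more genes were lower than higher at high density. Of 12883 genes tested, edgeR's quasi-likelihood test called 1961 (15.2%) at an adjusted p under 0.05, 539 higher (4.18%) and 1422 lower (11%) at high density. The rises had a median of 0.78 and the falls a median of -0.66 on the log2 scale, and 219 rises and 397 falls were over 2-fold. CPM of the 3 high and 3 low libraries did not overlap in 1960 of the 1961 called genes, against 33.0% of all genes tested. The share of falls grew with the level of the gene. Among genes with a mean under 1 CPM 2.23% fell and 2.97% rose, between 10 and 100 CPM 12.3% fell and 4.21% rose, and between 100 and 1000 CPM 27.5% fell and 4.05% rose. The split between directions also depended on the scaling. Under TMM scaling 27.5% of called genes were higher, under RLE 33.2%, under upper-quartile scaling 41.6%, in DESeq2 37.7%, and 65.1% where libraries were scaled by their totals, with which the median of all genes stood 0.15 higher on the log2 scale. No gene called in both the main and another fit changed direction. On the 5 large chromosome arms the share of falls lay between 8.94% of X-linked genes and 12.8% of genes on 2R.

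**Figure D1:**
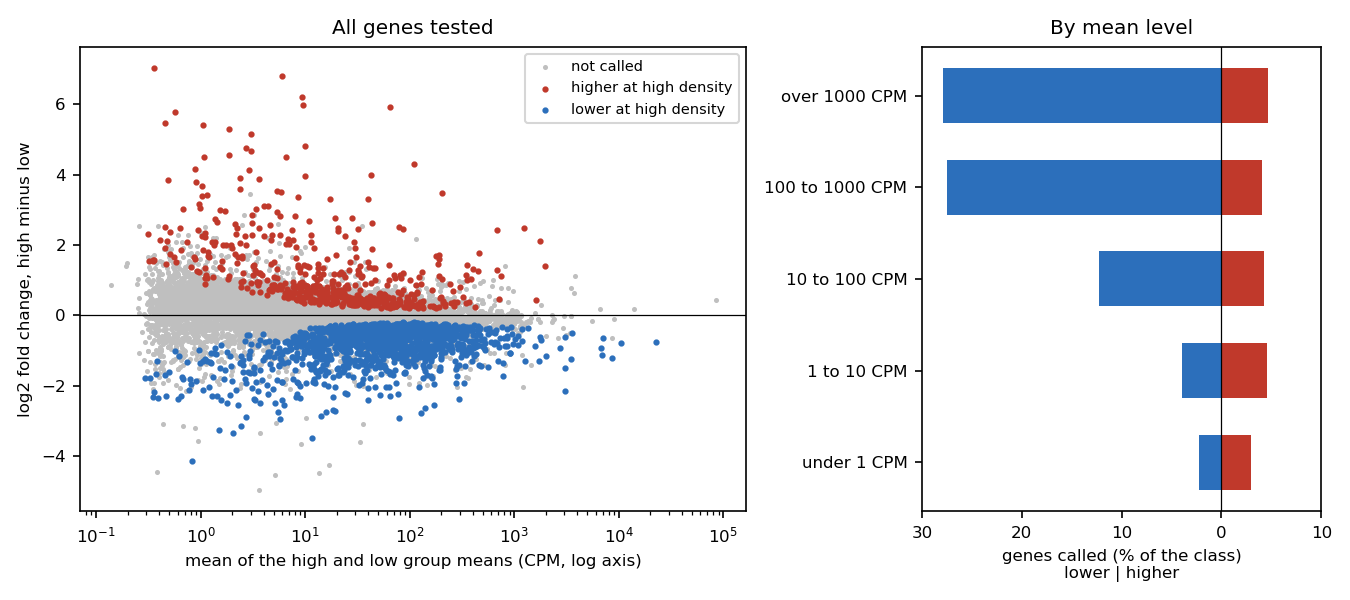
Left, log2 fold change of high against low density for each of the 12883 genes tested against its mean level in CPM (log axis), with called genes in red (539 higher) and blue (1422 lower). Right, percent of genes called lower (to the left) and higher (to the right) in 5 classes of mean level: falls go from 2.23% under 1 CPM to 27.9% over 1000 CPM.

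The genes were read through 67 lists of tissues and functions. The lists hold 1285 of the genes tested, of which 96 rose and 190 fell, and 1675 called genes are in no list. Lists are described by the number of members that rose or fell, beside the 4.18% and 11% of all genes, and by the median log2 fold change of their members, beside 0.06 for all genes. The 11% is taken over all levels, and 27.5% of genes between 100 and 1000 CPM fell. Falls in lists of abundant genes would stand out less beside genes of like level, a comparison that was not made. In the plot of calls per list, among lists of at least 15 tested members, rises are most frequent for the neuron, mitosis, peritrophin, cuticle and muscle lists and falls for the autophagy, proteasome, amylase and maltase, antioxidant and fatty acid oxidation lists. The plot of list levels by library shows how far the 3 crowded pools differed among themselves. Called genes were named only where the high and low libraries did not overlap. That their crowded pools lay above or below the low pools follows from this choice and adds no support. A gene given with its value in each library was called under every alternative that tested it unless its losses are stated. Genes given by their log2 fold change alone had less stable calls in many cases. Over the 304 called genes that the rules below name or the lists hold, leaving out low replicate 1, 2 or 3 lost 171, 150 and 144 calls, leaving out high replicate 1, 2 or 3 lost 78, 141 and 29, and DESeq2 lost 0. In 14 lists edgeR called no gene, and of their 303 tested genes 17 had an unadjusted p under 0.05, DESeq2 called 6, limma voom 1 and scaling by library totals 24.

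**Figure D2:**
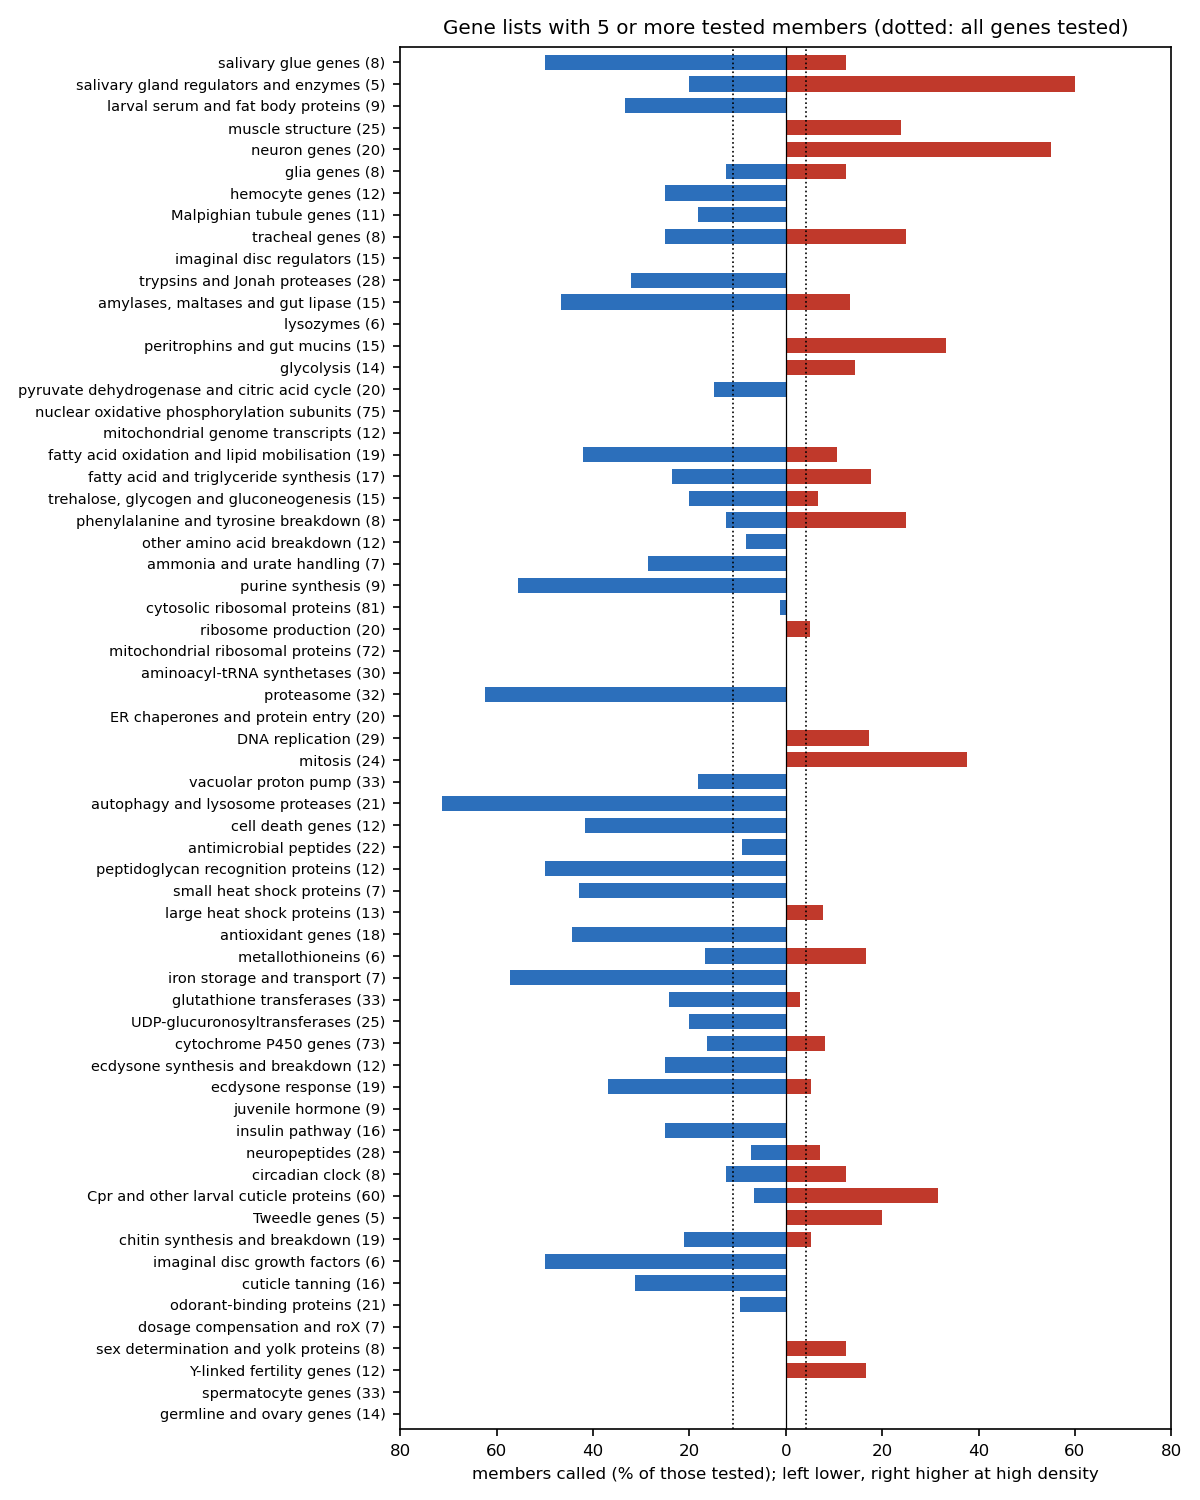
Percent of tested members called lower (blue, left) and higher (red, right) at high density in each list with 5 or more tested members, with the number tested in brackets and dotted lines at 4.18% higher and 11% lower for all genes. Autophagy and lysosome genes (15 of 21) and proteasome genes (20 of 32) reach furthest to the left, and salivary gland regulators (3 of 5) and neuron genes (11 of 20) furthest to the right.

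**Figure D3:**
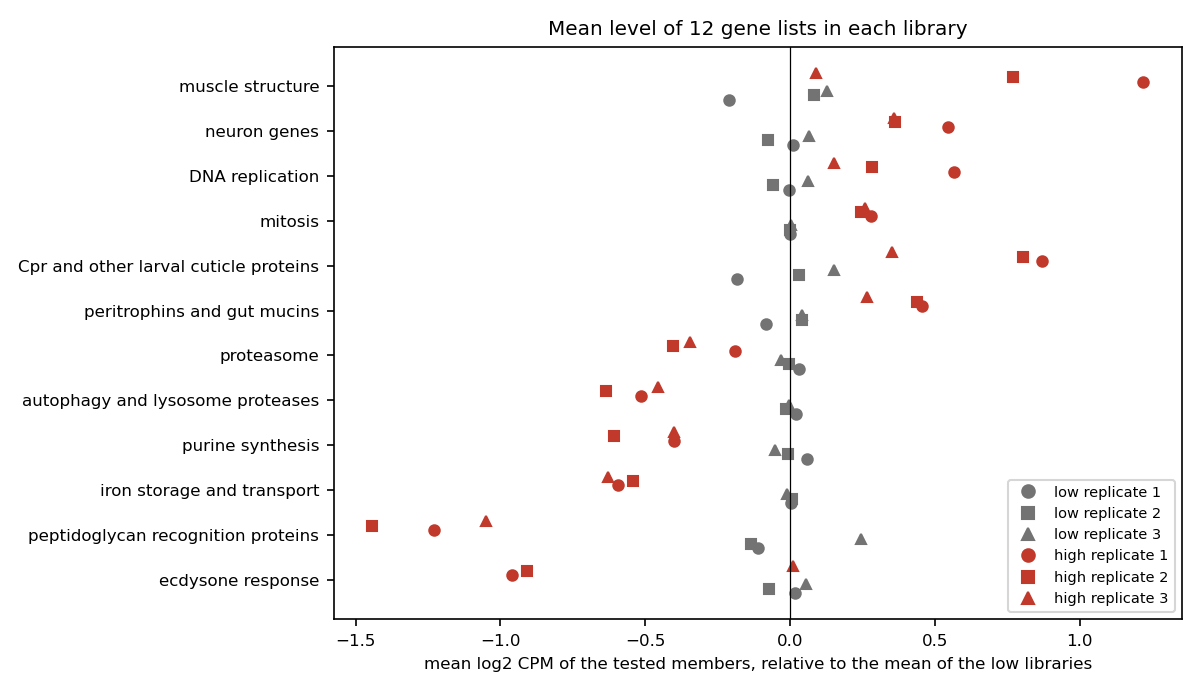
Mean log2 CPM of the tested members of 12 lists in each low (grey) and high (red) library, relative to the mean of the low libraries, with a marker shape for each replicate. High replicate 3 lies among the low libraries for muscle structure and ecdysone response, and with high replicates 1 and 2 for mitosis, autophagy, iron and the proteasome.

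Contractile genes were among those higher in crowded larvae. Of 25 contractile and muscle scaffold genes, 6 were called, all higher, and 23 had a positive log2 fold change (list median 0.79). TpnC47D (2R, 11273845 to 11275286, minus strand), a troponin C that makes contraction respond to calcium, measured 4.91, 7.71 and 8.98 CPM at low density and 63.7, 56.8 and 27.3 CPM at high density (log2 change 2.77 ± 0.44 SE, edgeR adjusted p 0.00634). All 3 crowded pools lay above the low ones, as its naming required, with replicate 3 nearest. Mhc, the myosin heavy chain of all muscles (2L, 16766566 to 16788766, plus strand), measured 152, 254 and 225 CPM at low density and 898, 933 and 322 CPM at high density (log2 change 1.77 ± 0.43 SE, edgeR adjusted p 0.029). It was no longer called under 7 of 21 alternatives, which include the fits without low replicate 1, 2 or 3 or high replicate 1 or 2 (adjusted p from 0.0661 to 0.113). The other 4 that rose were the muscle actins Act57B (log2 fold change 1.40) and Act87E (1.42), the calponin-family protein Mp20 (1.15) and the giant nuclear linker Msp300 (0.47), whose exons overlap small RNAs on its strand. TpnC47D was the only one of the 6 to keep its call in every alternative. The list's score, the mean log2 CPM of its members relative to the mean of the low libraries, was 1.22, 0.77 and 0.09 in high replicates 1, 2 and 3, against -0.21 to 0.13 in the low libraries, and the number of rises was 1 without low replicate 1 or 3, 2 without low replicate 2, 3 without high replicate 1 or 2, 18 without high replicate 3 and 4 to 6 without each of the other libraries in turn. The fit of the 6 high and low libraries gave 2 muscle rises, DESeq2 13 and library totals 12. In RNA from whole larvae, a change in the share of cells of a type and a change in RNA per cell cannot be told apart.

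Genes of neurons were higher more often than those of any other list of at least 15 members. Of 20 neuron genes 11 rose and 0 fell, with a median of 0.37. Gad1 (3L, 4074077 to 4088744, minus strand), the enzyme that makes the transmitter GABA, measured 4.04, 3.44 and 4.51 CPM at low density and 16.5, 12.3 and 8.51 CPM at high density (log2 change 1.64 ± 0.24 SE, edgeR adjusted p 0.00454). The GABA-gated chloride channel Rdl (3L, 9145838 to 9182149, minus strand) measured 13.2, 11.5 and 13.3 CPM at low density and 26.2, 24.4 and 20.5 CPM at high density (log2 change 0.90 ± 0.13 SE, edgeR adjusted p 0.00395). For the GABA-making enzyme and its receptor channel every crowded pool was above every low pool, which the rule for naming them required. The active zone scaffold brp, for Bruchpilot (2R, 9503765 to 9541565, plus strand), measured 43.2, 43.8 and 46.7 CPM at low density and 63.7, 59.2 and 64.3 CPM at high density (log2 change 0.48 ± 0.08 SE, edgeR adjusted p 0.00576). These 3 and the axonal microtubule protein futsch (0.62) stayed called under each alternative that tested them. The other rises were in the acetylcholine genes ChAT (0.71) and VAChT (0.56), whose exons overlap so that their reads cannot be fully told apart, in the glutamate transporter VGlut (0.51), the sodium channel para (0.82), the synaptic vesicle fusion proteins nSyb (0.36) and Snap25 (0.59) and the amyloid precursor homologue Appl (0.38). Rises in the list numbered 4 without low replicate 1, 5 without low replicate 2, 7 without low replicate 3 and 8 to 11 without each of the other libraries in turn. They numbered 6 in the fit of the 6 high and low libraries, 14 in DESeq2 and 16 with library totals. Of 8 glia genes, the sodium pump subunit nrv2 rose (log2 change 0.25, edgeR adjusted p 0.048, not called without low replicate 1, 2 or 3 or medium replicate 1, 2 or 3 or high replicate 1, 2 or 3, adjusted p from 0.0547 to 0.154) and the G protein regulator loco fell (log2 change -0.47, edgeR adjusted p 0.0042). Each is 12.5% of the glia list, against 4.18% higher and 11% lower of all genes.

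The sex determination gene fru (3R, 18414273 to 18545586, minus strand), whose male-specific proteins shape courtship circuits and which is also transcribed in both sexes outside them, measured 9.91, 11.2 and 12.4 CPM at low density and 64.3, 49.7 and 27.1 CPM at high density (log2 change 2.07 ± 0.29 SE, edgeR adjusted p 0.00377). The crowded pools lay between 27.1 and 64.3 CPM, above the low pools as its naming required. It was called under each of the 21 alternatives that tested it. No other of the 8 sex determination and yolk protein genes was called.

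Salivary gland transcripts moved in both directions. The larval gland first makes new-glue proteins and then, on the way to pupariation, the Sgs glue that sticks the pupa to its substrate. All 3 new-glue genes tested rose. The gene ng3 measured 1.96, 1.76 and 2.57 CPM at low density and 137, 165 and 82.1 CPM at high density, and 12.8, 2.55 and 18.02 CPM in the medium libraries. From a few counts at low density, ng1 measured 0.0869, 0.168 and 0.0451 CPM at low density and 6.16, 18.8 and 10.5 CPM at high density, and 0.481, 0.581 and 0.549 CPM in the medium libraries. For ng2 the values were 0.348, 0.293 and 0.0902 CPM at low density and 15.9, 21.5 and 18.01 CPM at high density, and 1.25, 2.01 and 0.899 CPM in the medium libraries. In all 3 genes every crowded pool was above every other pool. With so few counts at low density a fall of ng1 or ng2 could hardly have been called, and the size of their rises is uncertain. The counts of ng1 and ng2 are not all whole, so part of their reads also mapped elsewhere. Of 8 glue genes 4 fell and 1 rose. Sgs8 (3L, 11508967 to 11509394, minus strand) measured 5754, 4663 and 4356 CPM at low density and 2459, 1969.5 and 1813 CPM at high density (log2 change -1.24 ± 0.16 SE, edgeR adjusted p 0.00306), so all crowded pools were below all low ones. Sgs1 (2L, 4937409 to 4941423, plus strand), also a glue protein, went the other way, with 718, 669 and 572 CPM at low density and 4486, 2302 and 1705 CPM at high density (log2 change 2.12 ± 0.37 SE, edgeR adjusted p 0.00848). Both stayed called under each alternative that tested them. Sgs7 (-0.78), Sgs5 (-0.66) and CG7587, now named Sgs5bis (-1.29), fell too, with less stable calls. Sgs7 was not called without low replicate 1, 2 or 3 or high replicate 2, adjusted p from 0.066 to 0.0874. Sgs5 was not called without low replicate 1, 2 or 3 or medium replicate 1 or 3 or high replicate 2 or 3, adjusted p from 0.0614 to 0.127. CG7587 was not called without low replicate 1, 2 or 3, adjusted p from 0.0555 to 0.0649. The falls among glue genes numbered 1 without low replicate 1, 2 or 3, 2 without high replicate 2 and 3 to 5 without each of the other libraries in turn. Among 5 regulators and enzymes of the gland, the prolyl hydroxylase PH4alphaSG2 (3R, 30490074 to 30491987, plus strand) measured 1.96, 2.51 and 3.34 CPM at low density and 14.5, 10.4 and 6.92 CPM at high density (log2 change 2.02 ± 0.34 SE, edgeR adjusted p 0.0076). PH4alphaSG1 (1.80) and CrebA (0.51), a factor that raises secretory capacity, also rose, and the gland's forkhead factor fkh fell (-0.33). PH4alphaSG1 was not called without low replicate 1, 2 or 3 or high replicate 1 or 2, adjusted p from 0.0527 to 0.106, and CrebA was not called without low replicate 1, 2 or 3 or medium replicate 1 or high replicate 1, adjusted p from 0.0513 to 0.114. The gene fkh was no longer called under 7 of 22 alternatives, which include the fits without low replicate 1 or 2 or high replicate 2 (adjusted p from 0.0648 to 0.0956), and it was also lost under upper-quartile and library-total scaling.

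Of 9 larval serum and fat body genes 3 fell, 0 rose and 6 were not called (list median -0.56), and 3 of the 9 had positive log2 fold changes. Fbp2, a fat body alcohol dehydrogenase relative (2L, 9426784 to 9427917, plus strand), measured 8184, 9035 and 9464 CPM at low density and 4719, 4170.2 and 5262 CPM at high density (log2 change -0.91 ± 0.16 SE, edgeR adjusted p 0.00842), with CG42847 overlapping it on the same strand. Fbp1, the receptor by which the fat body takes serum proteins back up before metamorphosis (3L, 14094589 to 14098053, minus strand), measured 29944, 30687 and 25447 CPM at low density and 16758, 13809 and 20169.5 CPM at high density (log2 change -0.76 ± 0.19 SE, edgeR adjusted p 0.0321). Fbp1 was no longer called under 8 of 21 alternatives, which include the fits without low replicate 1, 2 or 3 or medium replicate 3 or high replicate 1 or 2 (adjusted p from 0.054 to 0.114). The lipid transfer protein Mtp, which loads lipid onto lipoproteins, fell by 0.69 on the log2 scale. The list's score was 0.25, -0.36 and -0.83 in high replicates 1, 2 and 3, so replicate 1 was above the low libraries and replicate 3 lowest. The falls numbered 1 without low replicate 3 or high replicate 2 and 2 to 3 without each of the other libraries in turn. Without high replicate 3 the list median was -0.10, and 1 gene rose.

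Genes of hemocytes, the blood cells of the larva, were lower where called. Of 12 such genes 3 fell and 0 rose. The phagocytosis receptor NimC2 (2L, 13980126 to 13983269, plus strand) measured 596, 613 and 512 CPM at low density and 237, 244 and 289 CPM at high density (log2 change -1.16 ± 0.11 SE, edgeR adjusted p 0.00144). Its crowded pools all lay below its low pools, as its naming required. The scavenger receptor crq (2L, 448254 to 453024, minus strand) measured 188, 161 and 173 CPM at low density and 91.4, 88.7 and 109.8 CPM at high density (log2 change -0.85 ± 0.10 SE, edgeR adjusted p 0.00255). The GATA factor srp (3R, 15986152 to 16004081, plus strand), which specifies fat body and blood cells, measured 76.1, 70.0 and 78.5 CPM at low density and 48.7, 46.6 and 56.3 CPM at high density (log2 change -0.57 ± 0.09 SE, edgeR adjusted p 0.0055) and overlaps lncRNA:CR44133, also lower, on its strand. All 3 stayed called under each alternative that tested them. The score of the whole list, however, was 0.15, -0.37 and -0.81 in high replicates 1, 2 and 3, so that replicate 1 stood above the low libraries (-0.14 to 0.10). The list median was -0.24, and 0.10 without high replicate 3.

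Other tissues ranged from imaginal discs without a call to tracheal genes, of which 25% rose and 25% fell. None of 15 imaginal disc regulators was called by edgeR, against 4 at an unadjusted p under 0.05, 2 by DESeq2 and 0 by limma voom, and 6 with library totals. The list median was 0.11, and 0.25 with library totals. The one with the most CPM, hth, measured 295, 276 and 328 CPM at low density and 277, 254 and 352 CPM at high density, groups that overlap. Of 11 Malpighian tubule genes the aquaporin Drip (log2 change -0.50, edgeR adjusted p 0.0149) and the potassium channel Irk1 (log2 change -1.08, edgeR adjusted p 0.0371) fell. Of 8 tracheal genes, the chitin-binding Gasp (log2 change 1.09, edgeR adjusted p 0.0242) and the chitin deacetylase verm (log2 change 0.42, edgeR adjusted p 0.0296) rose, while the FGF receptor btl (log2 change -0.58, edgeR adjusted p 0.0386) and the luminal protein pio (log2 change -0.28, edgeR adjusted p 0.0467) fell. Each of these 6 calls was lost in at least one alternative. Drip was not called without low replicate 1, adjusted p 0.0553, and pio was not called without low replicate 1, 2 or 3 or medium replicate 1, 2 or 3 or high replicate 1 or 2, adjusted p from 0.0602 to 0.157.

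Among gut genes, the called matrix genes were higher and most called enzyme genes lower. Of 15 peritrophins and mucins, which form the lining that separates food from gut cells, 5 rose and 0 fell (median 0.46). Muc68Ca (3L, 11610578 to 11620101, minus strand) measured 20.7, 25.1 and 55.1 CPM at low density and 577, 382 and 161 CPM at high density (log2 change 3.47 ± 0.60 SE, edgeR adjusted p 0.00836). Every crowded pool was above every low pool, as its naming required, with replicate 3 nearest. Muc68Ca was called under each of the 21 alternatives that tested it. The other rises were those of Muc96D (1.28), Peritrophin-15a (1.02), Muc14A (0.93) and Peritrophin-15b (0.89). The rises of this list numbered 1 without low replicate 1, 2 or 3 or high replicate 2, 2 without high replicate 1, 3 without medium replicate 1, 8 without high replicate 3 and 4 to 5 without each of the other libraries in turn.

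Starch- and sugar-cleaving enzymes split by gene. Of 15 amylase, maltase and gut lipase genes 7 fell and 2 rose. The maltase Mal-A6 (2R, 8465158 to 8467595, plus strand) measured 147, 134 and 118 CPM at low density and 54.2, 44.6 and 51.9 CPM at high density (log2 change -1.41 ± 0.11 SE, edgeR adjusted p 0.00104), and its neighbour Mal-A8 (2R, 8471954 to 8473961, plus strand) measured 26.1, 28.9 and 27.5 CPM at low density and 1.81, 4.63 and 5.69 CPM at high density (log2 change -2.76 ± 0.34 SE, edgeR adjusted p 0.0027). These maltases, which cut disaccharides at the gut surface, lay below every low pool in every crowded pool, as the rule for naming them required. Mal-B2 (-1.22), Mal-A5 (-0.57), Mal-B1 (-1.56) and the amylase relative Amyrel (-1.02) fell too, and Mal-A7 was at 0 in one crowded library and at no more than 2.72 CPM in any library. The 2 rises were the amylases themselves. Amy-p (2R, 17118636 to 17120303, minus strand) measured 79.0, 59.6 and 115 CPM at low density and 420.4, 269 and 129 CPM at high density (log2 change 1.69 ± 0.42 SE, edgeR adjusted p 0.0297). Amy-d rose by 1.15. The amylase copies are nearly identical, and the deposited counts split shared reads between them. Amy-p was no longer called under 7 of 21 alternatives, which include the fits without low replicate 1, 2 or 3 or high replicate 1 or 2 (adjusted p from 0.051 to 0.109).

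Of 28 trypsins and Jonah proteases, the serine proteases that digest protein, 9 fell and 0 rose (median -0.22). Jon99Ci (3R, 29925226 to 29926189, minus strand) measured 38.5, 39.0 and 26.3 CPM at low density and 14.4, 12.5 and 7.10 CPM at high density (log2 change -1.61 ± 0.30 SE, edgeR adjusted p 0.011), and it alone of the 9 kept its call in every alternative. The trypsins iotaTry (-1.89), alphaTry (-1.09) and etaTry (-0.999) and the Jonah genes Jon25Bi (-1.63), Jon99Fi (-1.23), Jon99Fii (-1.21), Jon65Ai (-0.59) and Jon65Aii (-0.53) fell. Jon99Fi and Jon99Fii share reads. Without high replicate 3, whose score of -1.01 was far under those of replicates 1 and 2 (-0.20 and -0.13), 6 fell and 4 rose, and the list median was 0.016. The falls numbered 1 without low replicate 1, 2 without high replicate 2, 3 without high replicate 1, 5 without low replicate 2 or 3 and 6 to 7 without each of the other libraries in turn. None of 6 lysozyme genes was called by edgeR, against 1 at an unadjusted p under 0.05, 1 by DESeq2 and 1 by limma voom.

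Of 19 genes of fatty acid oxidation and lipid mobilisation 8 fell and 2 rose. Lsd-1 (3R, 23763857 to 23766662, plus strand), a perilipin that coats lipid droplets and opens them to lipases, measured 289.5, 282 and 278 CPM at low density and 111, 103 and 94.5 CPM at high density (log2 change -1.46 ± 0.10 SE, edgeR adjusted p 0.000747). The carnitine palmitoyltransferase whd (2R, 10469473 to 10478567, minus strand), which passes fatty acids into mitochondria, measured 174, 149.6 and 139 CPM at low density and 76.0, 81.5 and 80.4 CPM at high density (log2 change -0.96 ± 0.10 SE, edgeR adjusted p 0.0019). In both, the crowded pools lay close together, and below all low pools as the naming rule required. The lipase bmm, which starts triglyceride breakdown, fell by 0.50 on the log2 scale. Among the other falls, the acyl-CoA dehydrogenase Mcad (-0.88) and Etf-QO (-0.58), which passes its electrons on, kept their calls in every alternative, while yip2 (-0.40), scu (-0.36) and Mtpalpha (-0.26) lost theirs in 1, 14 and 14 alternatives. The falls numbered 5 without high replicate 2 and 6 to 12 without each of the other libraries in turn. The lipases Lip3 (log2 change 1.34, edgeR adjusted p 0.0188) and Lip4 (log2 change 0.90, edgeR adjusted p 0.0301) rose. Synthesis genes moved both ways, with 4 of 17 lower and 3 higher. ATPCL (2R, 15993531 to 16001290, minus strand), which supplies cytosolic acetyl-CoA for fat synthesis, measured 608, 472 and 508 CPM at low density and 252, 263 and 323 CPM at high density (log2 change -0.92 ± 0.14 SE, edgeR adjusted p 0.0055). The last enzymes of triglyceride synthesis, mdy (-1.25) and Dgat2 (-1.63), fell with Agpat3 (-0.41), while the fatty acid synthase FASN2 (2.49), Agpat1 (0.62) and the acetyl-CoA carboxylase ACC (0.28) rose. ACC lost its call in 6 alternatives, among them the fits without low replicate 1, 2 or 3, and the other 6 of these 7 kept their calls wherever tested.

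Flies excrete nitrogen mainly as urate, made from purines, and glutamine synthetase binds free ammonia. Of 9 purine synthesis genes 5 fell and 0 rose (median -0.71). Paics (X, 12757036 to 12760617, minus strand), which carries out middle steps of the pathway, measured 686, 672 and 637 CPM at low density and 403, 348 and 402 CPM at high density (log2 change -0.79 ± 0.09 SE, edgeR adjusted p 0.00254). The inosine monophosphate dehydrogenase ras (X, 10744502 to 10749097, plus strand), which leads to guanine nucleotides, measured 368, 335 and 327 CPM at low density and 147, 134 and 218 CPM at high density (log2 change -1.05 ± 0.17 SE, edgeR adjusted p 0.00659) and overlaps a non-coding RNA on its strand. AdSL (-0.81), Gart (-0.90) and Prat2 (-0.71) also fell, and all but Prat2 stayed called under each alternative that tested them. Of 7 genes of ammonia and urate handling 2 fell, both of them glutamine synthetases, and 5 were not called (list median -0.17). Gs2 (X, 11422832 to 11430197, plus strand), the cytosolic form, measured 856, 778 and 848 CPM at low density and 183, 264 and 444 CPM at high density (log2 change -1.48 ± 0.27 SE, edgeR adjusted p 0.00993). Gs1, the mitochondrial form, measured 1191, 1090.1 and 1103 CPM at low density and 345, 325 and 665 CPM at high density. Crowded replicate 3 was the nearest to the low pools in both, and still below them.

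Sugar and amino acid genes moved one by one. Of 14 glycolysis genes 2 rose, the hexokinase Hex-A (log2 change 0.87, edgeR adjusted p 0.0128) and the phosphofructokinase Pfk (log2 change 0.44, edgeR adjusted p 0.0388), and 0 fell. Of 15 genes of trehalose, glycogen and gluconeogenesis 3 fell (20%, against 11% of all genes) and 1 rose (6.67%, against 4.18%). Pepck2, an enzyme of gluconeogenesis, measured 232, 201 and 236 CPM at low density and 81.2, 75.8 and 145 CPM at high density (log2 change -1.15 ± 0.23 SE, edgeR adjusted p 0.0143). Pepck2 was no longer called under 1 of 21 alternatives, namely the fit without low replicate 1 (adjusted p 0.0541). The sugar transporter Glut1 (-0.59) and the pyruvate carboxylase PCB (-0.36) fell as well, while the sorbitol dehydrogenase Sodh-2 rose (log2 change 1.904, edgeR adjusted p 0.0338). Of 8 genes for the breakdown of phenylalanine and tyrosine 1 fell, 2 rose and 5 were not called (median 0.98). Among the genes with at least 10 counts in every library 0 rose, and the median was -0.25. The phenylalanine hydroxylase Hn (3L, 7760453 to 7763166, plus strand) measured 215, 209 and 199 CPM at low density and 146, 104 and 89.6 CPM at high density (log2 change -0.87 ± 0.17 SE, edgeR adjusted p 0.0137). Hn was no longer called under 2 of 22 alternatives, namely the fits without low replicate 1 or high replicate 2 (adjusted p from 0.0553 to 0.0566). Hpd, the dioxygenase that takes the tyrosine product onward (3L, 20438166 to 20439872, minus strand), measured 0.782, 0.251 and 0.316 CPM at low density and 2.19, 9.99 and 8.02 CPM at high density (log2 change 3.89 ± 0.66 SE, edgeR adjusted p 0.00779), and hgo, the homogentisate dioxygenase (2L, 11136393 to 11138565, plus strand), measured 0.304, 0.0838 and 0.0902 CPM at low density and 6.63, 8.12 and 2.90 CPM at high density (log2 change 5.15 ± 0.62 SE, edgeR adjusted p 0.00268). Some low libraries held hgo at or under 3 counts, so the size of its rise is uncertain. Of 12 genes for the breakdown of other amino acids Oat fell (log2 change -0.45, edgeR adjusted p 0.0226), 8.33% of the list against 11% of all genes.

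Mitochondrial and translation genes showed few calls or none. None of 75 nuclear subunits of oxidative phosphorylation, 12 transcripts of the mitochondrial genome, 72 mitochondrial ribosomal proteins, 30 aminoacyl-tRNA synthetases and 20 endoplasmic reticulum chaperones was called by edgeR, with medians from -0.17 to 0.08. Scaling by library totals called 5, 0, 2, 6 and 3 of them, DESeq2 1, 0, 0, 1 and 0, and an unadjusted p under 0.05 was found for 6, 0, 0, 1 and 1, in the same order. ATPsynbeta, the catalytic subunit of the ATP synthase, measured 566, 558 and 588 CPM at low density and 667, 564 and 505 CPM at high density, overlapping groups. Of 81 cytosolic ribosomal proteins RpL29 fell (log2 change -0.30, edgeR adjusted p 0.039, not called without low replicate 1, 2 or 3 or medium replicate 1, 2 or 3 or high replicate 2 or 3, adjusted p from 0.0599 to 0.142), and of 20 pyruvate dehydrogenase and citric acid cycle genes 3 fell, all subunits of succinyl-CoA synthetase, Scsalpha1 (-0.44), ScsbetaA (-0.33) and ScsbetaG (-0.51). These 3 made up 15% of that list, against 11% of all genes. Among 20 genes of ribosome production the growth regulator Myc, which switches them on, rose (log2 change 0.62, edgeR adjusted p 0.0265), and the other 19 had positive log2 fold changes without a call (list median 0.12). That 1 call is 5% of the list, against 4.18% of all genes. Myc was no longer called under 6 of 21 alternatives, which include the fits without low replicate 1 or 2 or high replicate 1 or 2 (adjusted p from 0.0599 to 0.106).

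The proteasome is the complex that degrades ubiquitin-tagged proteins. Of its 32 subunit genes 20 fell (62.5%, against 27.5% of genes between 100 and 1000 CPM) and 0 rose. All 32 had negative log2 fold changes (median -0.32). The falls were small, between -0.25 and -0.52 on the log2 scale, and 18 of the 20 were Rpn and Rpt subunits of the regulatory particle. Rpn3 (2L, 19051790 to 19053681, plus strand) measured 309, 299 and 294 CPM at low density and 214, 191 and 223 CPM at high density (log2 change -0.52 ± 0.07 SE, edgeR adjusted p 0.00411), and it was the one subunit whose call held in every alternative. The 2 core particle subunits that fell were Prosbeta2 (-0.25) and Prosbeta3 (-0.26). The falls numbered 4 without low replicate 1, 5 without low replicate 2 or 3, 7 without high replicate 2 and 17 to 29 without each of the other libraries in turn. They numbered 8 with library totals, 9 with upper-quartile factors and 1 in the fit of the 6 high and low libraries alone. The median stayed negative in all of these fits.

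Autophagy delivers cell contents to the lysosome, and in wandering larvae the fat body is known for autophagy driven by ecdysone. Of 21 autophagy and lysosome genes 15 fell and 0 rose (median -0.49). The kinase Atg1 (3L, 12784429 to 12805116, minus strand), which starts autophagosome formation, measured 135, 117 and 132 CPM at low density and 49.6, 51.0 and 71.9 CPM at high density (log2 change -1.15 ± 0.14 SE, edgeR adjusted p 0.00268). The lysosomal protease CtsB1, cathepsin B (X, 13779847 to 13782170, minus strand), measured 639, 563 and 569 CPM at low density and 267, 254 and 309.5 CPM at high density (log2 change -1.09 ± 0.09 SE, edgeR adjusted p 0.00122), and the cathepsin L Cp1 (2R, 13960675 to 13967981, plus strand), whose exons overlap CG42806, measured 762, 656 and 669.5 CPM at low density and 368, 329.9 and 359 CPM at high density (log2 change -0.98 ± 0.10 SE, edgeR adjusted p 0.00196). In all 3 no crowded pool overlapped the low pools, which the naming rule required. 10 of the 15 stayed called under each alternative that tested them, namely Atg1, Atg17, Atg2, Atg3, Atg7, Cp1, CtsB1, Lamp1, cathD and ref(2)P. The others were Atg4a (-0.35), Atg5 (-0.44), Atg8a (-0.49), Atg18a (-0.41) and the protease 26-29-p (-0.51). Falls numbered 10 to 16 without each library in turn. Of 33 genes of the vacuolar proton pump, which acidifies lysosomes, 6 fell and 0 rose (median -0.09). These 6 are 18.2% of the list, against 11% of all genes and 27.5% of those between 100 and 1000 CPM. They were Vha100-5 (-0.60), Vha14-1 (-0.49), VhaM9.7-c (-0.48), Vha36-1 (-0.39), VhaM9.7-b (-0.39) and VhaPPA1-1 (-0.27). These falls numbered 0 without low replicate 1, 1 without low replicate 3 or high replicate 2, 2 without low replicate 2, 3 without medium replicate 2 and 4 to 6 without each of the other libraries in turn. With library totals 2 fell and 2 rose, and the median was 0.051.

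Of 12 cell death genes 5 fell and 0 rose. They were the initiator caspase Dronc (-0.94), its activator Dark (-0.73), the effector caspase Drice (-0.34), the Bcl-2 relative Buffy (-1.22) and the caspase inhibitor Diap1 (-0.44), so genes that act for and against death were both lower. Dark (2R, 17020027 to 17026703, plus strand) measured 183, 172 and 168 CPM at low density and 90.8, 89.8 and 134 CPM at high density (log2 change -0.73 ± 0.15 SE, edgeR adjusted p 0.0152). Dark was no longer called under 2 of 22 alternatives, namely the fits without low replicate 1 or high replicate 2 (adjusted p from 0.0541 to 0.0611). The other 4 lost their calls in between 6 and 14 alternatives. The falls of the list numbered 0 without low replicate 1 or high replicate 2, 1 without low replicate 3, 2 without low replicate 2 or medium replicate 1 or high replicate 1, 3 without medium replicate 3 and 4 to 5 without each of the other libraries in turn.

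Cell division genes that were called were higher at high density. Of 24 mitosis genes 9 rose and 0 fell (median 0.27), and of 29 DNA replication genes 5 rose and 0 fell, with all 29 log2 fold changes positive (median 0.37). CycB3 (3R, 24867934 to 24870816, minus strand), a mitotic cyclin, measured 23.6, 22.9 and 23.1 CPM at low density and 30.2, 34.2 and 34.4 CPM at high density (log2 change 0.50 ± 0.09 SE, edgeR adjusted p 0.0106). CycB (2R, 22803521 to 22806948, minus strand) measured 84.7, 85.2 and 87.2 CPM at low density and 107, 108 and 119.8 CPM at high density (log2 change 0.38 ± 0.07 SE, edgeR adjusted p 0.0103). CycB was no longer called under 1 of 22 alternatives, namely the fit without low replicate 1 (adjusted p 0.0505). The low pools lay close together for both, and all crowded pools were above them, as the naming rule required. Other rises were those of the Cdc25 phosphatase stg (0.49), the kinase polo (0.27), Incenp (0.43), BubR1 (0.34), ncd (0.36), pav (0.42) and tum (0.42) of the spindle and its checkpoint. In replication the helicase subunits dpa (0.47) and Mcm2 (0.46), the origin protein Orc1 (0.60), the ribonucleotide reductase RnrL (0.50) and the primase subunit DNApol-alpha60 (0.55) rose. CycB3 was the one call of the 14 to hold in every alternative. For mitosis the rises numbered 1 without low replicate 1, 2 without low replicate 3, 3 without low replicate 2 or medium replicate 1 or 3 or high replicate 2, 4 without high replicate 1, 5 without medium replicate 2 and 11 without high replicate 3. For replication they numbered 0 without low replicate 1, 2 or 3 or high replicate 2, 1 without medium replicate 1 or 3 or high replicate 1, 2 without medium replicate 2 and 14 without high replicate 3. Scaling moved both. Mitosis rises numbered 13 with upper-quartile factors, 12 in DESeq2 and 16 with library totals. Replication rises numbered 8, 13 and 19 in the same order. Some other alternatives lowered both. Mitosis rises numbered 3 without the filter on low counts, 2 with only the high and low libraries and 3 with the replicate block. They numbered 3 with only genes with whole counts and 4 without ribosomal RNA and mitochondrial genes. Replication rises under these alternatives numbered 1, 0, 1, 0 and 1, in the order given.

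Peptidoglycan recognition proteins sense or degrade bacterial cell wall. Of 12 such genes 6 fell and 0 rose (median -0.98). PGRP-LA (3L, 9334332 to 9338336, plus strand) measured 36.0, 31.7 and 31.1 CPM at low density and 10.5, 13.7 and 18.01 CPM at high density (log2 change -1.22 ± 0.18 SE, edgeR adjusted p 0.00444). The amidase PGRP-SC2 (2R, 8716950 to 8717695, plus strand), which breaks peptidoglycan down and so dampens the response, measured 113, 80.4 and 91.2 CPM at low density and 52.8, 45.5 and 44.9 CPM at high density (log2 change -0.99 ± 0.16 SE, edgeR adjusted p 0.00594). The sensor PGRP-SD (-0.96) and the amidases PGRP-SB1 (-2.32), PGRP-SC1a (-2.89) and PGRP-SC1b (-3.34) fell too, the last pair sharing reads. The falls numbered 4 to 7 without each library in turn. Of 22 antimicrobial peptide genes 2 fell (9.09%, against 11% of all genes), AttC (log2 change -2.14, edgeR adjusted p 0.0115) and Drs (log2 change -2.39, edgeR adjusted p 0.0178). The low libraries themselves ranged from -0.88 to 1.30 in the list's score. None of 4 Turandot stress genes was called by edgeR, against 1 at an unadjusted p under 0.05, 1 by DESeq2 and 0 by limma voom, TotA measuring 459.7, 762 and 935 CPM at low density and 295, 447 and 374 CPM at high density.

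Of 7 small heat shock genes, whose proteins keep damaged proteins from clumping, Hsp23, Hsp27 and Hsp67Bc fell. Hsp27 (3L, 9384063 to 9385694, plus strand) measured 1939, 1669 and 1741 CPM at low density and 531, 542 and 1116 CPM at high density (log2 change -1.29 ± 0.27 SE, edgeR adjusted p 0.0158). Hsp23 measured 4756, 4537 and 4302 CPM at low density and 999, 1150.4 and 2655 CPM at high density (log2 change -1.501 ± 0.33 SE, edgeR adjusted p 0.0206). For both, crowded replicate 3 held a higher level than replicates 1 and 2, still below the low pools. Hsp27 was no longer called under 2 of 21 alternatives, namely the fits without low replicate 1 or high replicate 2 (adjusted p from 0.0559 to 0.0608), and Hsp23 was no longer called under 3 of 21 alternatives, namely the fits without low replicate 1 or 2 or high replicate 2 (adjusted p from 0.0605 to 0.0749). Hsp83, the Hsp90 chaperone that also serves steroid receptors (3L, 3192969 to 3197059, plus strand), measured 1413, 1323 and 1365 CPM at low density and 1968, 1751 and 1822 CPM at high density (log2 change 0.43 ± 0.08 SE, edgeR adjusted p 0.0104), the one call among 13 large heat shock genes (7.69%, against 4.18% of all genes). It was no longer called under 3 of 21 alternatives, which include the fits without low replicate 2 or 3 (adjusted p from 0.0503 to 0.0683).

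Of 18 antioxidant genes 8 fell and 0 rose (median -0.26). Catalase, Cat (3L, 18822604 to 18828188, plus strand), which breaks down hydrogen peroxide, measured 917, 809 and 876 CPM at low density and 523, 477 and 513 CPM at high density (log2 change -0.78 ± 0.09 SE, edgeR adjusted p 0.00247). The near-identical peroxiredoxins Prx2540-1 (-2.36) and Prx2540-2 (-2.56), the sestrin Sesn (-0.76), the regulator Keap1 (-0.41), the peroxidase PHGPx (-0.58), the glutathione-making Gclc (-0.43) and Sod3 (-0.29) were the others, and 5 of the 8 kept their calls throughout, namely Cat, Keap1, Prx2540-1, Prx2540-2 and Sesn. The falls numbered 6 to 9 without each library in turn. Of 7 iron genes 4 fell and 0 rose (median -0.45). The 2 ferritin chains, which store iron in the gut and blood, lie side by side. Fer1HCH (3R, 30385573 to 30388178, minus strand) measured 847, 842 and 765 CPM at low density and 451, 416 and 517 CPM at high density (log2 change -0.83 ± 0.10 SE, edgeR adjusted p 0.00283) and Fer2LCH (3R, 30387804 to 30390584, plus strand) measured 584, 588 and 533 CPM at low density and 318, 290.2 and 330.5 CPM at high density (log2 change -0.86 ± 0.09 SE, edgeR adjusted p 0.00183). Transferrin, Tsf1, fell by 1.58 and the metal importer Mvl by 0.45 on the log2 scale. Of 6 metallothioneins MtnB rose (log2 change 2.07, edgeR adjusted p 0.011) and MtnD fell (log2 change -1.25, edgeR adjusted p 0.0102).

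Glutathione transferases join small toxic molecules to glutathione. Of 33 glutathione transferases 8 fell and 1 rose. GstE3 (2R, 18400713 to 18401467, plus strand) measured 167, 286 and 217 CPM at low density and 37.1, 44.8 and 16.6 CPM at high density (log2 change -2.77 ± 0.44 SE, edgeR adjusted p 0.00599). GstE9 (-2.54), GstT3 (-1.37), GstT1 (-0.48) and GstO3 (-0.59) kept their falls in every alternative as it did. The other falls were those of GstE8 (-1.92), GstS1 (-0.39) and GstT2 (-0.38), lost in 2, 10 and 17 alternatives. GstD7 rose (log2 change 3.06, edgeR adjusted p 0.0351) but was under 4 CPM in every library. Of 25 UDP-glucuronosyltransferases, which tag small molecules for export, 5 fell and 0 rose (median -0.41). Ugt37A3 (3R, 12741958 to 12743680, minus strand) measured 126, 98.2 and 96.7 CPM at low density and 19.3, 15.2 and 30.9 CPM at high density (log2 change -2.29 ± 0.27 SE, edgeR adjusted p 0.00255) and was called under each of the 21 alternatives that tested it. Ugt37B1 (-2.13), Ugt301D1 (-1.93), Ugt49B1 (-0.93) and Ugt303B3 (-0.82) fell too. The falls of the list numbered 1 without low replicate 1, 2 or 3, 2 without medium replicate 3 or high replicate 2, 3 without medium replicate 1 or high replicate 1 and 4 to 6 without each of the other libraries in turn, and 1 in the fit of the 6 high and low libraries. Of 73 cytochrome P450 genes, a family for steroids, fatty acids and foreign compounds, 12 fell (16.4%) and 6 rose (8.22%). The list median was 0.14, with 43 of the 73 log2 fold changes positive. Cyp6d5 (3R, 14029228 to 14031483, plus strand) measured 688, 696 and 620.4 CPM at low density and 258, 269 and 230 CPM at high density (log2 change -1.40 ± 0.10 SE, edgeR adjusted p 0.000863). Cyp9f2 (-1.20), Cyp9f3 (-0.91) and Cyp12a4 (-1.28) fell as well, and the 12 falls lay between -1.61 and -0.47 on the log2 scale. The rise with the smallest p, Cyp313a5 (3R, 12232794 to 12234684, minus strand), measured 0.0869, 0.126 and 0.135 CPM at low density and 2.03, 1.35 and 1.66 CPM at high density (log2 change 3.80 ± 0.40 SE, edgeR adjusted p 0.00196). Its low libraries lay near the floor of 3 counts, so the size of its rise is uncertain. Cyp6a2, known from insecticide resistance, rose from 3.04, 3.02 and 3.52 to 42.7, 43.4 and 8.87 CPM (log2 change 3.31 ± 0.63 SE, edgeR adjusted p 0.0113). Cyp6a2 was no longer called under 3 of 21 alternatives, which include the fits without low replicate 1 or 2 (adjusted p from 0.0514 to 0.0554). The P450 rises numbered 1 without low replicate 1 or 2, 3 without low replicate 3 or high replicate 2, 13 without high replicate 3 and 5 to 6 without each of the other libraries in turn, and the falls 10 to 12 without each library in turn.

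Of 19 ecdysone response genes 7 fell and 1 rose (median -0.79). The transcription factor gene br, for Broad (X, 1575132 to 1664869, plus strand), one of the early genes the hormone switches on, measured 2192, 2059 and 2169 CPM at low density and 1291, 1220.1 and 1712 CPM at high density (log2 change -0.60 ± 0.13 SE, edgeR adjusted p 0.0208). Another early gene, Eip74EF (3L, 17558672 to 17619325, minus strand), measured 534, 549 and 555 CPM at low density and 243, 226 and 400.5 CPM at high density (log2 change -0.91 ± 0.20 SE, edgeR adjusted p 0.0203). In both, crowded replicates 1 and 2 were close together and replicate 3 lay between them and the low pools. The list's score was -0.96, -0.91 and 0.01 in high replicates 1, 2 and 3, with -0.07 to 0.06 in the low libraries. Falls numbered 0 without low replicate 3 or high replicate 2, 1 without low replicate 1 or 2, 3 without high replicate 1, 14 without high replicate 3 and 5 to 6 without each of the other libraries in turn. They numbered 2 in the fit of the 6 high and low libraries, 3 with library totals and 7 in DESeq2. The gene br was no longer called under 7 of 21 alternatives, which include the fits without low replicate 1, 2 or 3 or high replicate 1 or 2 (adjusted p from 0.0515 to 0.0771), and Eip74EF was no longer called under 5 of 21 alternatives, namely the fits without low replicate 1, 2 or 3 or high replicate 1 or 2 (adjusted p from 0.0527 to 0.0643). The other falls were those of the ecdysone exporter E23 (-1.30), Eip75B (-0.96), Eip71CD (-0.94), Hr39 (-0.79) and Hr78 (-0.35). The rise was that of Hr38 (2L, 20683462 to 20714588, minus strand), an orphan nuclear receptor also known as a marker of active neurons, with 0.174, 0.168 and 0.226 CPM at low density and 10.2, 3.54 and 2.15 CPM at high density (log2 change 4.77 ± 0.67 SE, edgeR adjusted p 0.00399). It was called under each of the 21 alternatives that tested it, although its low libraries rest on few counts. Of 12 genes that make or break down ecdysone Start1 (-0.49), sro (-0.48) and ecd (-0.32) fell and 0 rose. In this list 6 log2 fold changes were positive and 6 negative (median 0.0024). The calls of Start1, sro and ecd were lost in 1, 8 and 15 of 22 alternatives. The falls numbered 0 without low replicate 1, 1 without low replicate 2 or 3 or high replicate 2 and 2 to 4 without each of the other libraries in turn. None of 9 juvenile hormone genes was called by edgeR, against 0 at an unadjusted p under 0.05, 0 by DESeq2 and 0 by limma voom.

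Of 16 insulin pathway genes 4 fell and 0 rose. Ilp6 (X, 2331493 to 2334658, minus strand), the insulin-like peptide of the fat body, measured 99.9, 104 and 129.8 CPM at low density and 62.6, 59.4 and 80.3 CPM at high density (log2 change -0.72 ± 0.13 SE, edgeR adjusted p 0.0107). Ilp5 (3L, 9823349 to 9823897, minus strand), from the insulin-producing cells of the brain, measured 2.48, 2.93 and 3.07 CPM at low density and 1.39, 0.885 and 0.848 CPM at high density (log2 change -1.43 ± 0.25 SE, edgeR adjusted p 0.00842). Thor, the translation brake 4E-BP, fell (log2 change -0.46, edgeR adjusted p 0.0413, not called without low replicate 1, 2 or 3 or medium replicate 1 or 3 or high replicate 2 or 3, adjusted p from 0.0504 to 0.147), as did foxo (log2 change -0.34, edgeR adjusted p 0.0337, not called without low replicate 1, 2 or 3 or medium replicate 2 or high replicate 1 or 2, adjusted p from 0.0549 to 0.103), the factor that switches it on. The insulin pathway falls numbered 2 without low replicate 1, 2 or 3 or high replicate 2 and 3 to 4 without each of the other libraries in turn. Of 28 neuropeptide and receptor genes 2 fell (7.14%, against 11% of all genes) and 2 rose (7.14%, against 4.18%). CCHa2 (3R, 13389059 to 13395197, minus strand), a nutrient signal from fat body and gut to the brain, measured 47.2, 43.6 and 34.7 CPM at low density and 20.9, 23.9 and 21.3 CPM at high density (log2 change -0.93 ± 0.14 SE, edgeR adjusted p 0.00542). AkhR (2L, 6711286 to 6716186, minus strand), the fat body receptor for the glucagon-like hormone AKH, measured 25.0, 18.9 and 25.0 CPM at low density and 8.78, 11.2 and 12.1 CPM at high density (log2 change -1.10 ± 0.19 SE, edgeR adjusted p 0.00864). The rises were Dh31 (log2 change 0.72, edgeR adjusted p 0.0176) and Lk (log2 change 0.95, edgeR adjusted p 0.0379). Among 8 clock genes Pdp1 rose (log2 change 1.18, edgeR adjusted p 0.0265) and vri fell (log2 change -0.25, edgeR adjusted p 0.0468), neither in every alternative. Each call is 12.5% of the list, against 4.18% higher and 11% lower of all genes.

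Cpr proteins bind chitin in the soft larval and the hard pupal cuticle. Of 60 Cpr and other larval cuticle genes tested, from 94 in the table, 19 rose and 4 fell (median 0.67). Cpr65Ay (3L, 6158075 to 6158630, minus strand) measured 0.261, 0.419 and 0.406 CPM at low density and 3.84, 5.31 and 4.13 CPM at high density (log2 change 3.59 ± 0.28 SE, edgeR adjusted p 0.00104). Cpr47Ec (2R, 11259106 to 11259976, minus strand) measured 1.26, 0.963 and 0.632 CPM at low density and 7.34, 19.1 and 6.15 CPM at high density (log2 change 3.50 ± 0.54 SE, edgeR adjusted p 0.00556). Both were at low levels in the low pools, so the size of their rises is uncertain. The larval cuticle gene Lcp3 (2R, 8435310 to 8436095, plus strand) measured 257, 390.3 and 463 CPM at low density and 3570.4, 1896 and 786 CPM at high density (log2 change 2.49 ± 0.59 SE, edgeR adjusted p 0.0259) and was no longer called under 6 of 21 alternatives, which include the fits without low replicate 1, 2 or 3 or high replicate 1 or 2 (adjusted p from 0.0576 to 0.105). The 19 rises lay between 1.04 and 3.59 on the log2 scale. The falls were Cpr12A (-0.67), Cpr49Ab (-0.89), Cpr49Ac (-1.22) and Cpr51A (-0.78). Only Cpr12A, Cpr47Eb, Cpr47Ec and Cpr65Ay stayed called under each alternative that tested them. The rises numbered 3 without low replicate 1, 5 without low replicate 2 or 3, 8 without high replicate 2, 12 without medium replicate 1 or high replicate 1 and 13 to 23 without each of the other libraries in turn. They numbered 9 among genes with at least 10 counts in every library, 10 in limma voom and 9 with the replicate block. The fit of the 6 high and low libraries gave 8 rises, DESeq2 22 and library totals 21. TwdlG (3R, 4248723 to 4251341, minus strand), a Tweedle cuticle gene, measured 0.261, 0.335 and 0.271 CPM at low density and 4.90, 5.72 and 2.68 CPM at high density (log2 change 3.91 ± 0.41 SE, edgeR adjusted p 0.00196) and was called under each of the 21 alternatives that tested it.

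Of 19 chitin genes 4 fell (21.05%, against 11% of all genes) and 1 rose (5.26%, against 4.18%). Cht5 (3R, 13767549 to 13770732, plus strand), a chitinase of the moult, measured 215, 173 and 177 CPM at low density and 61.9, 80.1 and 105 CPM at high density (log2 change -1.19 ± 0.18 SE, edgeR adjusted p 0.00567). Cht2 (-0.45), Cht11 (-0.92) and the gut chitin synthase Chs2 (-0.55) fell as well. The chitin-binding obst-E, which shapes the larval cuticle, rose (log2 change 2.39, edgeR adjusted p 0.0347, not called without low replicate 1, 2 or 3 or medium replicate 1 or 3 or high replicate 1 or 2, adjusted p from 0.0509 to 0.128). Of 16 tanning genes 5 fell and 0 rose (median -0.79). The gene yellow-e (3R, 13409543 to 13415286, minus strand) measured 308, 241 and 237 CPM at low density and 130.4, 165 and 135 CPM at high density (log2 change -0.87 ± 0.13 SE, edgeR adjusted p 0.00549), and yellow-b (-0.64), yellow-d (-0.85) and yellow-f (-1.24) kept their calls in every alternative as it did. The dopa decarboxylase Ddc, which makes the dopamine used in tanning, measured 1362, 1050.3 and 1154 CPM at low density and 149.8, 285 and 646 CPM at high density (log2 change -1.72 ± 0.45 SE, edgeR adjusted p 0.0367). Ddc was no longer called under 9 of 21 alternatives, which include the fits without low replicate 1, 2 or 3 or medium replicate 1, 2 or 3 or high replicate 2 (adjusted p from 0.0504 to 0.124). The tanning score was -1.68, -1.47 and -0.29 in high replicates 1, 2 and 3. The falls numbered 10 without high replicate 3 and 4 to 5 without each of the other libraries in turn, and 2 tanning genes rose without high replicate 3. Of 6 imaginal disc growth factors, chitinase relatives released by the fat body and discs, Idgf1 (-0.61), Idgf2 (-0.64) and Idgf3 (-0.57) fell. Of 21 odorant-binding proteins Obp99b (3R, 29716254 to 29716896, minus strand) fell, with 10154, 9709 and 8584 CPM at low density and 3828, 5135 and 3982 CPM at high density (log2 change -1.14 ± 0.19 SE, edgeR adjusted p 0.00723), as did Obp99c (log2 change -0.95, edgeR adjusted p 0.00196). These falls made up 9.52% of the list, against 11% of all genes.

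Since no label gives the sex of the larvae, markers of males were read in each pool. The male-specific RNA lncRNA:roX1 measured 754, 506 and 330 CPM at low density and 346, 585 and 574 CPM at high density, overlapping groups with no call (edgeR adjusted p 0.918). All 33 spermatocyte genes had positive log2 fold changes (median 0.42), yet none was called by edgeR, against 0 at an unadjusted p under 0.05, 0 by DESeq2 and 0 by limma voom. The list scored -0.29, 0.50 and 0.74 in high replicates 1, 2 and 3 against -0.19 to 0.22 in the low libraries. Of 12 Y-linked fertility genes kl-3 (log2 change 1.91, edgeR adjusted p 0.0189) and ORY (log2 change 1.87, edgeR adjusted p 0.0482), a spermatocyte dynein gene and a coiled-coil gene, rose, with list scores of 0.10, 0.88 and 1.27. The gene kl-3 was not called without low replicate 1, 2 or 3 or high replicate 2, adjusted p from 0.0633 to 0.0714. ORY was not called without low replicate 1, 2 or 3 or medium replicate 1, 2 or 3 or high replicate 2 or 3, adjusted p from 0.0566 to 0.165, and it was not called with the roX level as a covariate (edgeR adjusted p 0.0599, or 0.0742 with the replicate block as well). Their part in the other results was not tested beyond a fit with the roX level as a covariate, which called 2174 genes, 698 higher and 1476 lower. None of 14 germline and ovary genes was called by edgeR, against 2 at an unadjusted p under 0.05, 0 by DESeq2 and 0 by limma voom.

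Outside the lists, several of the largest changes were in genes that the table lists by CG numbers. CG4962 (3L, 16294711 to 16295547, minus strand) measured 0.348, 0.628 and 0.677 CPM at low density and 12.5, 16.2 and 9.08 CPM at high density (log2 change 4.50 ± 0.57 SE, edgeR adjusted p 0.00306). CG32198 (3L, 18526976 to 18527445, plus strand) measured 3.04, 7.16 and 21.4 CPM at low density and 283, 193 and 150.4 CPM at high density (log2 change 4.31 ± 0.67 SE, edgeR adjusted p 0.0057). Both were well above all low pools in all crowded pools and stayed called under each alternative that tested them. Among the falls, CG11459, now named CtsL3 as a cathepsin L gene (3R, 6025826 to 6027238, minus strand) measured 228, 252 and 251 CPM at low density and 11.9, 42.2 and 62.5 CPM at high density (log2 change -2.64 ± 0.48 SE, edgeR adjusted p 0.00993). CG10182 (3R, 23587120 to 23589819, minus strand) measured 23.9, 45.4 and 27.0 CPM at low density and 4.94, 6.35 and 3.71 CPM at high density (log2 change -2.69 ± 0.35 SE, edgeR adjusted p 0.00326). Both falls also kept their calls. The genes with the highest CPM among those called were all lower at high density, Fbp1, Sgs7, Cpr49Ac, Sgs5, Obp99b, Fbp2, Act5C, Sgs8, CG2233 and Hsp23. The cytoplasmic actin Act5C measured 4469.7, 4007 and 4163 CPM at low density and 2773, 2668 and 3467 CPM at high density (log2 change -0.50 ± 0.12 SE, edgeR adjusted p 0.0264). Act5C was no longer called under 7 of 21 alternatives, which include the fits without low replicate 1, 2 or 3 or high replicate 1 or 2 (adjusted p from 0.0581 to 0.103). CG2233 measured 3993, 3543 and 3617 CPM at low density and 2530.5, 2493 and 2272 CPM at high density (log2 change -0.61 ± 0.10 SE, edgeR adjusted p 0.00606) and was called under each of the 21 alternatives that tested it.

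Neighbouring genes were in places called together. In 6 places at least 5 adjacent tested genes were called in one direction. The longest run held 6 genes on 3L, 4465105 to 4484370, all higher, among them CG32241 with 0.956, 1.17 and 1.44 CPM at low density and 14.2, 32.2 and 9.22 CPM at high density (log2 change 3.95 ± 0.69 SE, edgeR adjusted p 0.0086) and CG7465 with 5.04, 5.99 and 3.97 CPM at low density and 172, 48.9 and 18.5 CPM at high density (log2 change 3.99 ± 0.85 SE, edgeR adjusted p 0.0175). CG32241 stayed called under each alternative that tested it, and CG7465 was no longer called under 4 of 22 alternatives, which include the fits without low replicate 1, 2 or 3 (adjusted p from 0.0635 to 0.0741). On 3R, 15986152 to 16041796, the GATA factor genes srp, GATAe and pnr and the non-coding RNAs lncRNA:CR44133 and lncRNA:CR42839 were all lower, with log2 fold changes from -1.35 to -0.57. On 2R, 6998848 to 7011739, the tetraspanin genes Tsp42Eb, Tsp42Ec and Tsp42Ed and their neighbours CR42785 and CG30160 were lower, from -1.62 to -0.55. On X, 18480072 to 18494168, psh, a protease that senses infection, fell with CG15043, CG15044, CG15046 and asRNA:CR45714. The genes of these runs other than those above were chosen for their positions after their values were seen.

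The plot of 16 genes by library sets the spread of the crowded pools beside the distance between the densities.

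**Figure D4:**
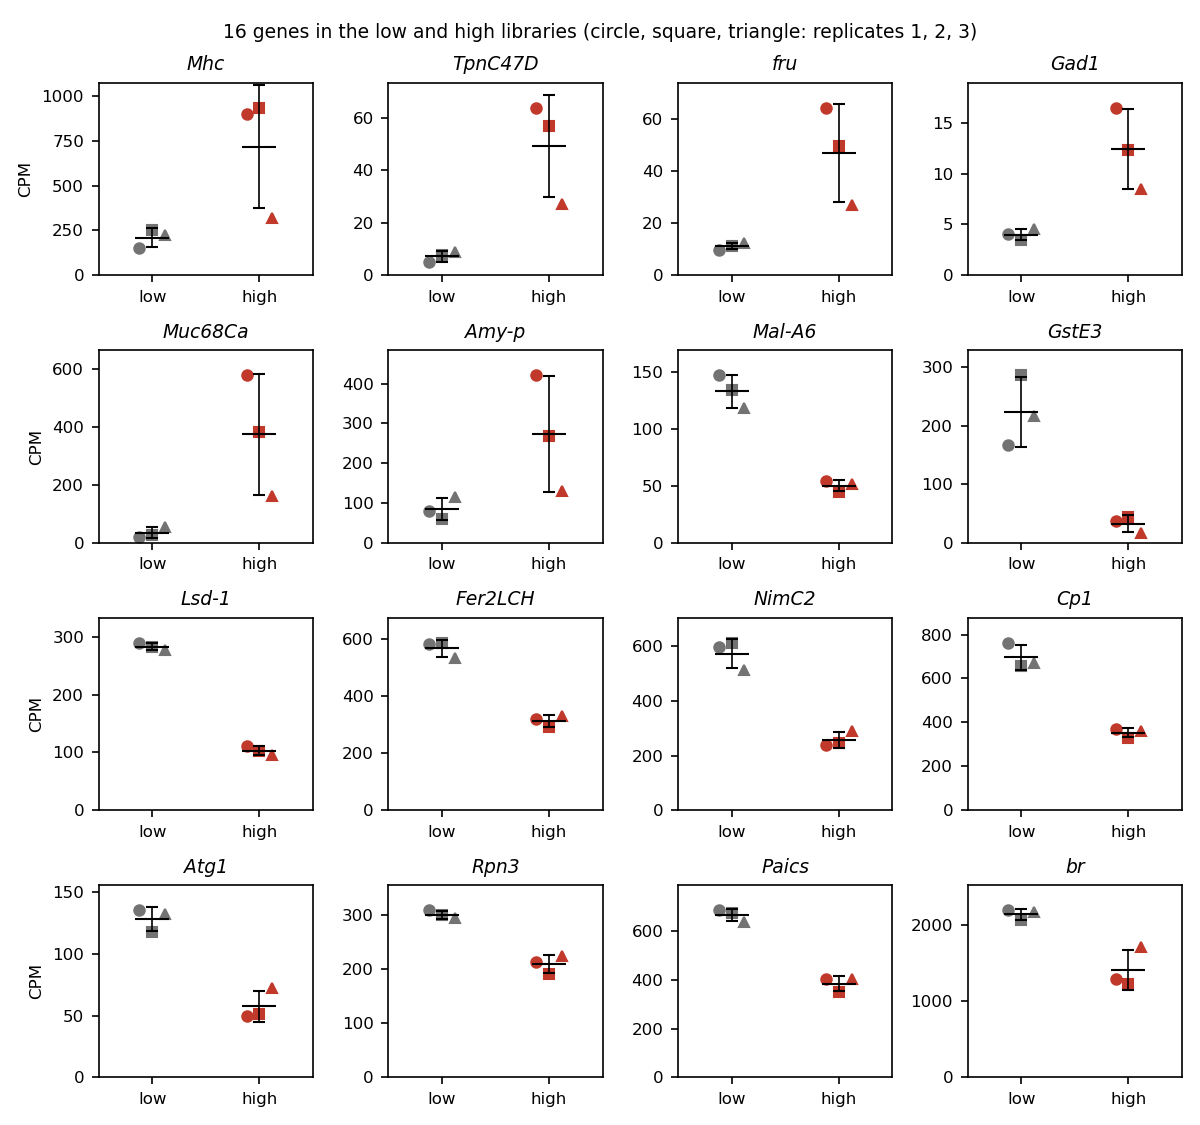
CPM of 16 genes in each low (grey) and high (red) library, with a marker shape per replicate and the mean and SD (n = 3) in black, every axis starting at 0. No gene overlaps between groups, which the rule for naming genes required. The crowded pools of Mhc, Amy-p and fru spread widely (Mhc from 322 to 933 CPM), and those of Lsd-1, Paics and Cp1 lie close together (Lsd-1 from 94.5 to 111 CPM).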

How the data were processed

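Libraries were TruSeq stranded mRNA libraries of pooled larvae, per the labels' protocols. The deposited expected counts, 1 column for each of 9 libraries, were made by the authors with featureCounts 1.6.2 on the reverse strand, per the file headers, with multi-mapping pairs counted as fractions, so that 5.06% of values are not whole and near-identical copies divide their reads. Per the submitters' processing notes, Trim Galore 0.6.4, HISAT2 2.1.0 and SAMtools 1.9 were used on dm6. Gene positions come from that table (Release 6). Of its symbols 16913 were current in RefSeq, 796 were synonyms and 50 were unmatched.

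After rounding, the test was that of edgeR 4.0.16 (R 4.3.3), with filterByExpr, TMM, the quasi-likelihood F-test, 1 coefficient per density over 9 libraries, Benjamini-Hochberg over 12883 genes, threshold 0.05, after a trial on simulated data. The 22 alternatives include DESeq2 1.42.0 and limma voom (3.58.1), other scalings and filters, covariates, the replicate block and leaving out each library. List scores are mean log2 CPM with a prior count of 2. A library's floor of 3 counts equals 0.119 to 0.178 CPM.

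Lists and members were chosen with earlier results of these data known. Genes named are called genes with non-overlapping CPM that are the 12 largest changes each way with at least 10 CPM, the 10 with the highest CPM, or the 4 of smallest p in a list, plus its smallest p against the main direction. That the crowded pools of these genes all lie above or below their low pools follows from this choice. Where no member was called, the one with the highest CPM is named. For called members beyond these, log2 fold changes or their range are given. The rule for P450 genes was corrected after the counts were seen, since it had also taken in cyclophilins.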

Additional observations from a re-analysis of the deposited data

How the results depend on the processing

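When each of the 9 libraries was left out, the genes changed numbered between 807 (without low replicate 1) and 2755 (without high replicate 3), those higher between 111 and 925 and those lower between 696 and 1830. The fit of the 6 high and low libraries alone called 978, 190 higher and 788 lower, and the fit of only genes with whole counts called 1193, 264 higher and 929 lower. DESeq2 called 1081 higher. Library totals alone called 1656 higher and 888 lower. The replicate block called 257 higher and 1148 lower. Deviations of same-numbered low and high libraries correlated at -0.03, 0.23 and -0.14 (r across genes), and those of differently numbered ones at -0.24 to 0.27. From 3 libraries a group these values cannot decide whether replicate numbers pair the pools. In every alternative, genes also called in the main fit had the same direction. Over all named genes and alternatives, 1399 calls were lost, 4 gained and 23 values changed sign, all 23 in genes without a call, and the cause was not tested. Log2 changes on both sides of 0 when 1 library was left out ran from -0.91 to 1.06 for Eig71Ea, from -0.17 to 0.068 for hth, from -0.61 to 0.063 for LysS, from -0.098 to 0.11 for ATPsynbeta, from -0.15 to 0.00050 for mRpS5, from -0.031 to 0.16 for Hsc70-3, from -0.021 to 0.25 for Jheh2, from -0.35 to 0.26 for lncRNA:roX1 and from -0.49 to 0.16 for lncRNA:roX2. The sign also turned with upper-quartile factors, to 0.050 for hth, 0.017 for mRpS5 and 0.0013 for lncRNA:roX1; with library totals alone, to 0.13 for hth, 0.090 for mRpS5, 0.044 for AspRS, 0.085 for lncRNA:roX1, 0.018 for the median of cytosolic ribosomal proteins and 0.010 for the median of odorant-binding proteins; with at least 10 counts in every library, to -0.25 for the median of phenylalanine and tyrosine breakdown, -0.12 for the median of pupal cuticle proteins and -0.10 for the median of Tweedle genes; with only genes with whole counts, to -0.18 for the median of large heat shock proteins. Of the 67 list medians 26 changed sign in at least 1 alternative, 19 of them in fits without 1 library. Over those fits the medians ran from -0.91 to 1.06 for late Eig71E genes, from -0.63 to 0.098 for hemocyte genes, from -0.45 to 0.016 for trypsins and Jonah proteases, from -0.54 to 0.23 for lysozymes, from -0.043 to 0.38 for glycolysis, from -0.05 to 0.10 for pyruvate dehydrogenase and citric acid cycle, from -0.062 to 0.10 for nuclear oxidative phosphorylation subunits, from -0.39 to 0.018 for mitochondrial genome transcripts, from -0.083 to 0.08 for fatty acid and triglyceride synthesis, from -0.13 to 0.37 for trehalose, glycogen and gluconeogenesis, from -0.16 to 0.012 for other amino acid breakdown, from -0.0062 to 0.078 for mitochondrial ribosomal proteins, from -0.062 to 0.035 for ER chaperones and protein entry, from -0.08 to 0.22 for cytochrome P450 genes, from -0.11 to 0.094 for ecdysone synthesis and breakdown, from -0.051 to 0.062 for juvenile hormone, from -0.14 to 0.018 for odorant-binding proteins, from -0.12 to 0.099 for sex determination and yolk proteins and from -0.026 to 0.21 for germline and ovary genes.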
